A study of Mus musculus with 5 samples.

Results

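The genes described here are p53 target genes and genes of the apoptosis machinery, measured in whole pancreas of newborn mice. They were taken from a list of 44 gene symbols, and 41 of them had a probe set annotated with that symbol alone, out of 19938 genes measured in this way. The other 3 (Trp53, Cdkn1a and Bax) are not analysed here. The 41 comprise 13 regulators and targets of p53, 13 members of the Bcl2 family, 3 death receptors, 6 caspases, and 6 components of the apoptosome together with inhibitor of apoptosis proteins (IAPs). Pancreata were taken at postnatal day 1 from 2 control mice, labelled as not recombined, and from 3 Pdx1cKO mice, in which Elastase-Cre inactivates a loxP-flanked Pdx1. The series title places both genotypes in the same litter. The Elastase promoter drives Cre in exocrine cells, so endocrine and duct cells were not the target of the deletion, and each array reads all cell types of the organ together. The sources used here name neither the strain nor the alleles that the control mice carry.

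p53 is a transcription factor that is kept low by the ubiquitin ligase Mdm2 and accumulates after DNA damage or other stress. It then induces genes that arrest the cell cycle, repair damage or start apoptosis. In the mitochondrial pathway, BH3-only proteins of the Bcl2 family relieve the block that Bcl2, Bcl2l1 and Mcl1 place on Bax and Bak1. Cytochrome c then leaves the mitochondria and assembles with Apaf1 and caspase 9, while death receptors act through caspase 8. Much of this machinery is controlled after transcription, and a transcript level does not measure the activity of a caspase or of p53. The comparison asked whether transcripts of these genes differ between control and Pdx1cKO pancreata.

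RNA was hybridised to 1 Affymetrix Mouse Gene ST array per mouse, and the deposited intensities, already normalized by the authors, had medians of 61.0 to 61.9. The number of arrays, not a read depth, limits the precision, and 2 arrays against 3 allow no exact permutation p below 0.1. Pdx1, which the Cre deletes, read 67.9 and 113 on the control arrays and 48.4, 48.4 and 42.9 on the Pdx1cKO arrays (limma adjusted p = 0.385). Markers of other tissues moved with the groups or with 1 array. The summed intensity of 13 acinar markers, which define the labelled tissue, was 66718 to 99471 on the control arrays and 14927 to 25917 on the Pdx1cKO arrays, and all 13 were lower in every Pdx1cKO mouse. All 10 liver markers were higher, with sums of 6087 to 7601 against 18743 to 47289, as were all 9 markers of granulocytes and myeloid progenitors, with sums of 447 to 458 against 1334 to 3606. For 11 stomach markers the sum was 18122 in control 2, 560.1 in control 1 and 810.2 to 1051 on the Pdx1cKO arrays. Xist was at 622 and 349 in Pdx1cKO mice 1 and 2 and at 33.5 to 53.4 in the other 3 mice, where Y-linked genes were high. No marker is at 0 on this scale, since the lowest intensities lie near 18 and no detection calls were used. The part of these tissues in the values below was not tested. In a fit with sex as a covariate, the group difference rests on Pdx1cKO mouse 3 alone against the controls. Only Pdx1cKO mice 1 and 2 had high Xist, so that fit cannot decide what part sex has in the values.

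With p-values of limma adjusted over 19938 genes, no member passed the threshold of 0.05, and neither did any other gene (0% of genes higher and 0% lower). At an unadjusted limma p under 0.05, 1 member was higher (Phlda3) and 1 lower (Perp). These are 2.44% of the 41 members in each direction, against 5.29% of all genes higher and 5.04% lower, so such calls were no more frequent among the members than among all genes. The methods' t-test also left 0 members after adjustment, with 1 higher and 1 lower before it. The values of all 3 Pdx1cKO mice lay above both controls in 6 members (14.6%, against 12.0% of all genes) and below both controls in 2 members (4.88%, against 11.7% of all genes). Over the 41 members the median difference was 0.03 on the log2 scale, beside -0.00117 over all genes, and 33 members (80.5%) lay within 0.25 of 0 on the log2 scale, as did 82.9% of all genes. Only Perp differed by 2-fold or more. The summed intensity of the members was 7050 to 7354 on the control arrays and 7018 to 7232 on the Pdx1cKO arrays, so the 2 ranges overlapped. In a bulk sample, fewer cells of a type and less RNA per cell cannot be told apart.

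**Figure D1:**
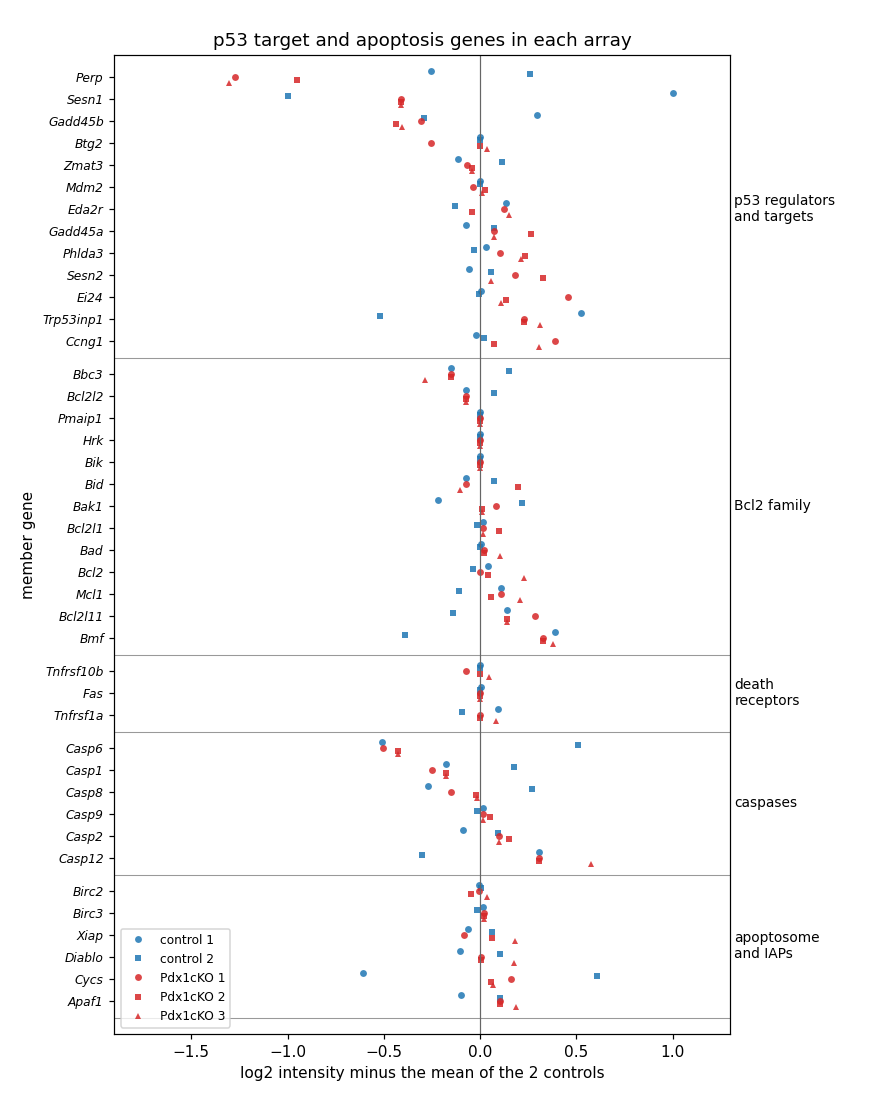
Log2 intensity of each of the 41 members minus the mean of the 2 controls, for each array (blue for control, red for Pdx1cKO, with a marker shape per mouse), grouped by class. Perp lies far to the left in all 3 Pdx1cKO arrays, while for Sesn1, Trp53inp1, Casp6 and Cycs the Pdx1cKO arrays lie between 2 widely spaced controls or level with one of them.

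Promoter sequences were searched for the p53 decamer, the 10-base consensus of which a complete p53 response element holds a pair. The decamer is its own reverse complement, so that a search of 1 strand covers both. RefSeq windows of GRCm38.p6, from 250 bases before to 50 after a transcription start, were found for 35 of the 41 members. The 6 without a window, Perp, Trp53inp1, Zmat3, Bik, Pmaip1 and Tnfrsf10b, could not be searched. The decamer was in 7 of these 35 genes (20%), against 9.55% of all 27025 genes with a window. Some genes have more than 1 window. Counted by window, the decamer was in 7 of 47 windows of the members (14.9%), against 8.36% of all 32851 windows. A pair of decamers up to 13 bases apart was in none of the 35 genes, against 0.074% of all genes. A window this short does not cover elements further away or inside introns. The 5 regulators and targets of p53 with a match are shown with the decamer in capitals, each on the strand of its gene. Of these, Ccng1 and Ei24 were higher in all Pdx1cKO mice. Mdm2, the classical feedback target, was level, and the groups overlapped for Gadd45a and Sesn1. Phlda3, also higher in all Pdx1cKO mice, held no match. A link between a match and these levels was not tested. Bmf and Birc2 also held a match.
Ccng1 (chr11:40755432-40755501, minus strand): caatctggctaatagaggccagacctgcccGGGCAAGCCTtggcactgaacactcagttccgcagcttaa
Ei24 (chr9:36797335-36797374, minus strand): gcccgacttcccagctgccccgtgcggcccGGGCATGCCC
Gadd45a (chr6:67037408-67037477, minus strand): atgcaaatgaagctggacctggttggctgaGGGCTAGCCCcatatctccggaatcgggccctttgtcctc
Mdm2 (chr10:117710905-117710974, minus strand): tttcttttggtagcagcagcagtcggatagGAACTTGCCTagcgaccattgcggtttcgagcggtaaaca
Sesn1 (chr10:41887236-41887305, plus strand): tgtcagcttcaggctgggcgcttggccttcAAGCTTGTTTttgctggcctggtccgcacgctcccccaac
Such a match is a description of the sequence and not a measured binding site.

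Among the regulators and targets of p53, Mdm2 itself differed the least. Its intensities were 125 and 125 on the control arrays, which share 1 exact value, and 122, 127 and 126 on the Pdx1cKO arrays. The log2 fold change was -8.81e-05, with a 95% confidence interval of -0.07 to 0.07, and the control value lay inside the range of the Pdx1cKO mice. Of the 13 in this class, no other had so narrow an interval.

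Perp, a tetraspan membrane protein of desmosomes in epithelia and a target of p53 and p63, had the largest difference of the 41 members. Its intensities were 238 and 339 on the control arrays and 118, 147 and 115 on the Pdx1cKO arrays. All 3 Pdx1cKO values lay below both controls, 2.26-fold lower on average. The log2 fold change was -1.18 (standard error 0.218, 95% confidence interval -1.80 to -0.55). The unadjusted limma p was 0.00722 and the limma adjusted p = 0.271, and 157 of 19938 genes lay lower than Perp by this measure. Control 2, which had the higher Perp, is the array with stomach transcripts. Without control 2 the log2 fold change was -0.92, and without control 1 it was -1.43 (limma adjusted p = 0.128 and 0.062). Negative median log2 fold changes were also found for the acinar (-2.07), islet (-0.97) and stomach markers (-1.70). For the 4 measured duct markers the median was -0.46, with overlapping groups in 2 of them, and for macrophage markers it was -0.05. The lists of liver, granulocyte, erythroid, B cell precursor, endothelial, mesenchymal and cell cycle genes had positive medians. The part of any of these in Perp was not tested.

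Further targets separated the groups without overlap, by smaller amounts. Of the 13 in this class, 3 were higher without overlap (23.1%, against 12.0% of all genes) and 2 lower, Perp included (15.4%, against 11.7%). Phlda3, a PH-domain repressor of Akt, had intensities of 213 and 203 on the control arrays and 223, 244 and 240.4 on the Pdx1cKO arrays. The log2 fold change was 0.18 (standard error 0.0523, limma adjusted p = 0.393), a level 1.14 times that of the controls. Ccng1, which encodes cyclin G1, was at 568 and 585 on the control arrays and at 755, 605 and 713 on the Pdx1cKO arrays, a log2 fold change of 0.26 with an interval of -0.07 to 0.58. Every Pdx1cKO value of Phlda3 and Ccng1 was above both controls, and for Ccng1 mouse 2 was the nearest to the controls. Ei24, a membrane protein of the endoplasmic reticulum first found as an etoposide-induced gene, had 309 and 307 on the control arrays and 423, 338 and 332 on the Pdx1cKO arrays, and Pdx1cKO mouse 1 lay furthest above the controls, for a log2 fold change of 0.23 that was 0.12 without that mouse. Gadd45b, a stress gene that is driven by NF-kB and TGF-beta signals rather than mainly by p53, was at 266 and 177 on the control arrays and at 175, 160.2 and 164 on the Pdx1cKO arrays. Control 2 and Pdx1cKO mouse 1 were almost level for Gadd45b, so its log2 fold change of -0.38 rested on control 1. Without control 2 it was -0.68 (limma adjusted p = 0.0398, taking the spread of the lone control from the Pdx1cKO arrays), and without control 1 it was -0.09.

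**Figure D2:**
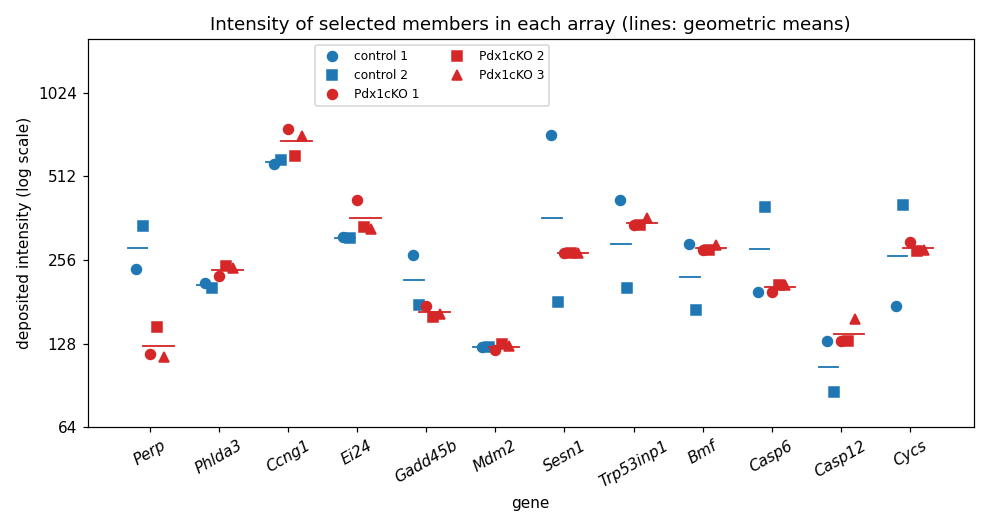
Deposited intensity on a log scale of 12 members in each array (blue for control, red for Pdx1cKO, with a marker shape per mouse and lines at geometric means). The groups are apart for Perp, Phlda3, Ccng1, Ei24 and Gadd45b, Mdm2 is level near 125, and the controls of Sesn1, Trp53inp1, Bmf, Casp6 and Cycs lie on either side of the Pdx1cKO mice or level with them.

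Sestrins repress mTORC1 and limit oxidative damage. Sesn2 was at 86.9 and 94.1 on the control arrays and at 102, 113 and 94.1 on the Pdx1cKO arrays, where mouse 3 held exactly the value of control 2. Sesn1 and Trp53inp1, a stress protein that promotes autophagy and cell death, are given because their controls differed more than 2-fold and were chosen after their values were seen. Sesn1 was at 723 in control 1, 181 in control 2 and 272 in each of the 3 Pdx1cKO mice. Leaving out control 2 gave a log2 fold change of -1.41 and leaving out control 1 gave 0.59, both past an adjusted p of 0.05 by limma (0.00143 and 0.00106), so the direction of Sesn1 was set by the control that was kept. Trp53inp1 was at 419 and 203 on the control arrays and at 342, 342 and 362 on the Pdx1cKO arrays, all between the controls. The remaining 4 of the class (Gadd45a, Eda2r, Zmat3 and Btg2) had log2 fold changes between -0.07 and 0.14, and their groups overlapped. They encode a damage-response protein, an ectodysplasin receptor, a zinc finger RNA-binding protein and an antiproliferative protein. The median log2 fold change of the 13 was 0.08.

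In the Bcl2 family, 12 of 13 members overlapped between the groups, as did 15213 of all 19938 genes. A log2 fold change within 0.25 of 0 was found in 12 of the 13 (92.3%, against 82.9% of all genes). The survival proteins were close to level. Bcl2 was at 221 and 209 on the control arrays and at 215, 221 and 252 on the Pdx1cKO arrays, and Bcl2l1, which encodes Bcl-xL, was at 154 and 150.2 against 154, 163 and 154. For Mcl1 the intensities were 395 and 339 on the control arrays and 395, 379.9 and 422 on the Pdx1cKO arrays, which places mouse 2 between the controls. Bcl2l2, which encodes Bcl-w, was at 59.6 in control 1 and in every Pdx1cKO mouse and at 66.1 in control 2. The 95% intervals of Bcl2, Bcl2l1, Mcl1 and Bcl2l2 together spanned log2 values of -0.22 to 0.38, so a 2-fold difference in any of these 4 lay outside its interval.

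The pore-forming protein Bak1 was at 148 and 200.1 on the control arrays and at 182, 173 and 173 on the Pdx1cKO arrays, all between the controls. BH3-only genes, whose products sense damage or loss of growth factors, gave no common direction. Bcl2l11, which encodes Bim, was at 108 and 89.3 on the control arrays and at 119.9, 108 and 108 on the Pdx1cKO arrays. Bbc3, which encodes the p53 target Puma, was at 48.4 and 59.7 on the control arrays and at 48.4, 48.4 and 44.0 on the Pdx1cKO arrays. In both, 3 of the 5 arrays held 1 identical value, that of control 1. Bad, the partner of Bcl-xL that is inactivated by phosphorylation, was at 79.9 and 79.6 on the control arrays and at 80.9, 80.9 and 85.6 on the Pdx1cKO arrays. It was the 1 family member without overlap, with a log2 fold change of 0.05. Bmf had the largest log2 fold change of the family, 0.34, with 292 and 169.8 on the control arrays and 279, 279 and 289.7 on the Pdx1cKO arrays. Its low value was that of control 2 alone, and without control 2 the log2 fold change was -0.05, against 0.73 without control 1 (limma adjusted p = 0.542 and 0.00932). Hrk had exactly 1 value, 89.9, in all 5 arrays, and Bik and Pmaip1, which encodes the p53 target Noxa, varied by less than 0.001 on the log2 scale. Bid had a log2 fold change of 0.00602, and its groups overlapped.

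The death receptors were level as well, with a class median of -0.0030. Fas was at 50.3 in control 1 and at 50.1 in the other 4 arrays. These values lie below the array medians of 61.0 to 61.9, and whether Fas was above background is unknown. Tnfrsf10b, the receptor for TRAIL, was at 79.6 in both controls and at 75.6, 79.6 and 82.3 on the Pdx1cKO arrays. Tnfrsf1a, the main receptor for TNF, was at 369.6 and 324 on the control arrays and at 346, 346 and 366 on the Pdx1cKO arrays. In each of the 3 receptors the groups overlapped, as in 15213 of all 19938 genes. The widest interval, that of Tnfrsf1a, ran from -0.18 to 0.23.

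Among the caspases, Casp2, an initiator that responds to genotoxic stress, was at 218 and 248 on the control arrays and at 249, 258 and 249 on the Pdx1cKO arrays. It was the only caspase without overlap, 1 of 6 higher (16.7%, against 12.0% of all genes). Pdx1cKO mice 1 and 3 exceeded control 2 by a margin of 0.0068 on the log2 scale. Casp12, a caspase of the endoplasmic reticulum in rodents, had the most positive log2 fold change of the class, 0.40 (interval -0.27 to 1.06). Its intensities were 130.5 and 85.6 on the control arrays and 130.5, 131 and 157 on the Pdx1cKO arrays, so control 2 stood low, Pdx1cKO mouse 3 stood high and the other 3 arrays were level. Leaving out control 1 gave Casp12 a log2 fold change of 0.70, and leaving out control 2 gave 0.09. Casp1, which processes interleukin-1 beta, was dim, at 25.9 and 33.1 on the control arrays and 24.6, 25.9 and 25.9 on the Pdx1cKO arrays, and was called with control 2 as the only control (-0.38 on the log2 scale, limma adjusted p = 0.0435). It was the only member in the lowest quartile of mean levels over all genes, the filter that the other 40 passed. Casp6, an effector caspase chosen here after its values were seen, was at 197 in control 1, 399 in control 2 and 197, 208 and 208 on the Pdx1cKO arrays, which placed control 1 at their level and control 2 apart from them, for a log2 fold change of -0.45 that was -0.96 without control 1 (limma adjusted p = 0.0108). Casp8, the initiator of the death receptor pathway, was also highest in control 2, with 291 and 423 on the control arrays and 317, 346 and 348 on the Pdx1cKO arrays. The initiator of the apoptosome, Casp9, had a log2 fold change of 0.03. The class median was -0.02.

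Of the apoptosome and the IAPs, Apaf1, the scaffold that activates caspase 9, was at 143 and 164 on the control arrays and at 164, 164 and 174 on the Pdx1cKO arrays. Birc3, which encodes cIAP2, was at 87.9 and 85.8 on the control arrays and at 88.2 in all 3 Pdx1cKO mice, a separation of a log2 fold change of 0.02 that turned to -0.0043 under median scaling. Diablo, the IAP antagonist released from mitochondria, was at 95.1 and 109.6 on the control arrays and at 103, 103 and 115 on the Pdx1cKO arrays. These 3 genes were thus within 0.25 of 0 on the log2 scale and not called. Cycs, cytochrome c, was at 174 and 405 on the control arrays and at 297, 276 and 278 on the Pdx1cKO arrays, and was also chosen after its values were seen. It is an average over 3 probe sets that disagreed, since 2 of them gave 3.48-fold and 3.57-fold differences between the controls and the third lay at 32.4 to 35.3 in all 5 arrays. Cycs has many processed pseudogenes, so its probes may also read copies. Its log2 fold change was -0.51 with control 2 alone and 0.70 with control 1 alone as the comparison. Xiap, which inhibits caspases directly, and Birc2 had log2 fold changes of 0.05 and -0.0066, with overlapping groups. The class median was 0.06.

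**Figure D3:**
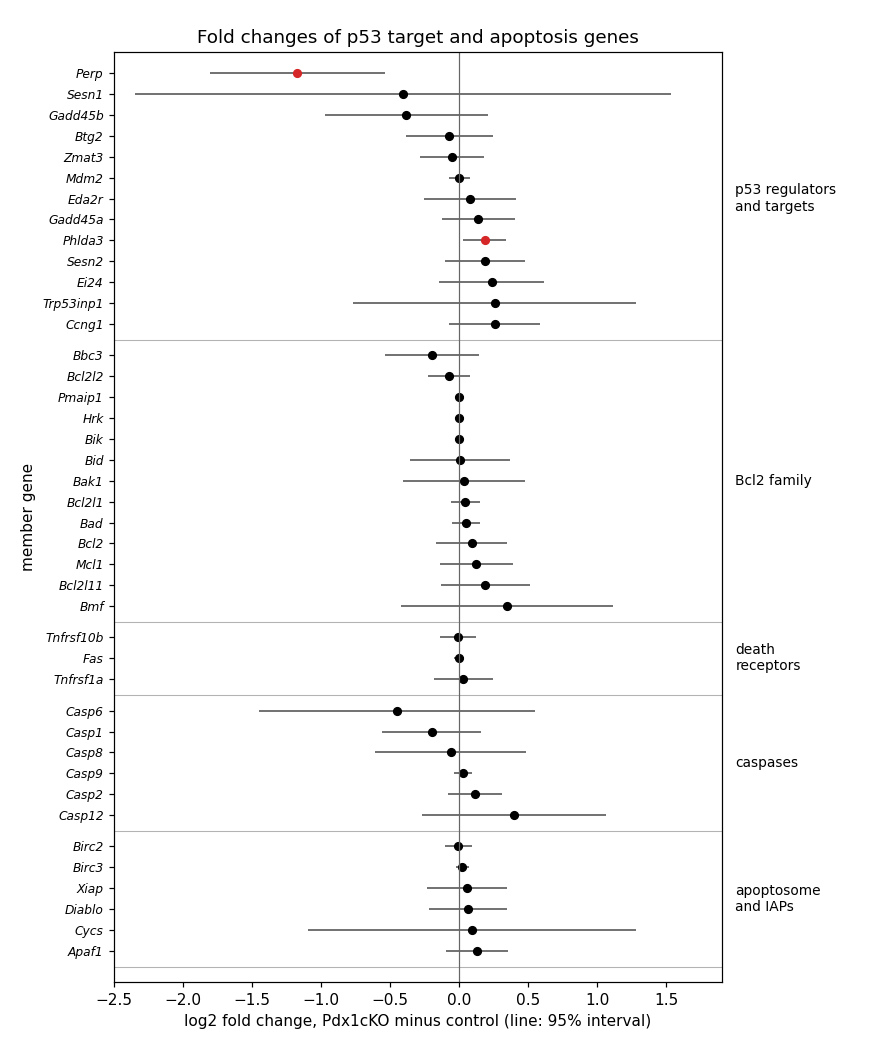
Log2 fold change of each member, Pdx1cKO minus control (points; red where the unadjusted limma p is under 0.05), with its 95% confidence interval from limma (lines). The intervals of Perp and Phlda3 lie to 1 side of 0, and the widest are those of genes whose controls differ, such as Sesn1 (-2.34 to 1.52) and Cycs.

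In most members the controls lay further apart than the group means. The median distance of control 1 from control 2 was 0.149 in log2 units, beside a median size of 0.0759 for the group difference. Over all genes these medians were 0.104 and 0.0725. The controls differed by more than 2-fold in 4 of the 41 (9.76%, against 2.61% of all genes). Sesn1 and Trp53inp1 were higher in control 1, and Casp6 and Cycs were higher in control 2. In 13 members (31.7%) every Pdx1cKO value lay within the range of the controls, ends included, as in 24.8% of all genes. Leaving out control 1 gave 9 called members (22% of members, against 17.0% of all genes), and leaving out control 2 gave 3 (7.32%, against 15.4% of all genes). Each such fit has 1 control, whose spread is taken from the Pdx1cKO arrays. Only Sesn1 and Cycs were called in both, and both had opposite signs in the 2 fits. Exact ties added to this, since 30 members held a value shared by 2 or more arrays and 6 had 1 identical value in all 3 Pdx1cKO mice (14.6%, against 15.7% of all genes), which leaves no measured spread in that group.

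Further genes of the same pathways gave a similar picture. Of 29 other p53 pathway genes listed, 26 were measured and 0 were called at a limma adjusted p of 0.05, as over all genes. At an unadjusted limma p under 0.05, 1 of the 26 was higher and 1 lower, against 5.29% and 5.04% of all genes. Rps27l, a ribosomal protein S27 paralog induced by p53, was at 713 and 679.6 on the control arrays and at 495, 547 and 566 on the Pdx1cKO arrays. All 3 values lay below both controls, by -0.38 on the log2 scale with a standard error of 0.0726 and a limma adjusted p = 0.278. Thbs1, the matrix protein thrombospondin, was at 876 and 847 on the control arrays and at 1284, 1121 and 1625 on the Pdx1cKO arrays, a difference of 0.62 on the log2 scale with a standard error of 0.183 and a limma adjusted p = 0.403. Mdm4, the partner of Mdm2, read 118 and 104 with control RNA and 121, 122 and 118 with Pdx1cKO RNA. For Sesn3, also a sestrin, these intensities were 214 and 166 against 219, 214 and 225. In both genes the lowest Pdx1cKO value lay level with control 1, and the log2 fold changes were 0.12 and 0.22. With 1 sample left out they ran from 0.03 to 0.21 for Mdm4 and from 0.04 to 0.40 for Sesn3, the ends being the fits without control 2 and without control 1, and the latter called Sesn3 (limma adjusted p = 0.0305). The median of the 26 was 0.03.

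Of 28 other apoptosis genes listed, 24 were measured, with 0 called and a median log2 fold change of -0.0015. At an unadjusted limma p under 0.05, 1 of the 24 was lower, against 5.04% of all genes. The gene below that level was Cflar, which encodes the caspase 8 inhibitor FLIP. Its intensities, averaged over 3 probe sets, were 64.8 and 63.7 on the control arrays and 59.8, 58.3 and 61.1 on the Pdx1cKO arrays, below both controls in each mouse. Its log2 fold change was -0.11 (standard error 0.0265, limma adjusted p = 0.353), but with the brightest probe set in place of the average it was -0.02 and no longer under an unadjusted p of 0.05. Bok, a pore-forming relative of Bak1, was at 124 and 158 on the control arrays and at 108, 110.4 and 124 on the Pdx1cKO arrays. Endog, a mitochondrial nuclease, read 63.8 and 56.9 with control RNA and 66.8, 73.8 and 63.8 with Pdx1cKO RNA, and Bcl2l13, a mitochondrial relative of Bcl2, read 183 and 228 against 228, 247 and 228. Their log2 fold changes were 0.17 and 0.20, and that of Bok was -0.30. Leaving out 1 control moved Endog between 0.09 and 0.26, Bcl2l13 between 0.04 and 0.35 and Bok between -0.47 and -0.12. The groups overlapped in Bok, Endog and Bcl2l13.

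**Figure D4:**
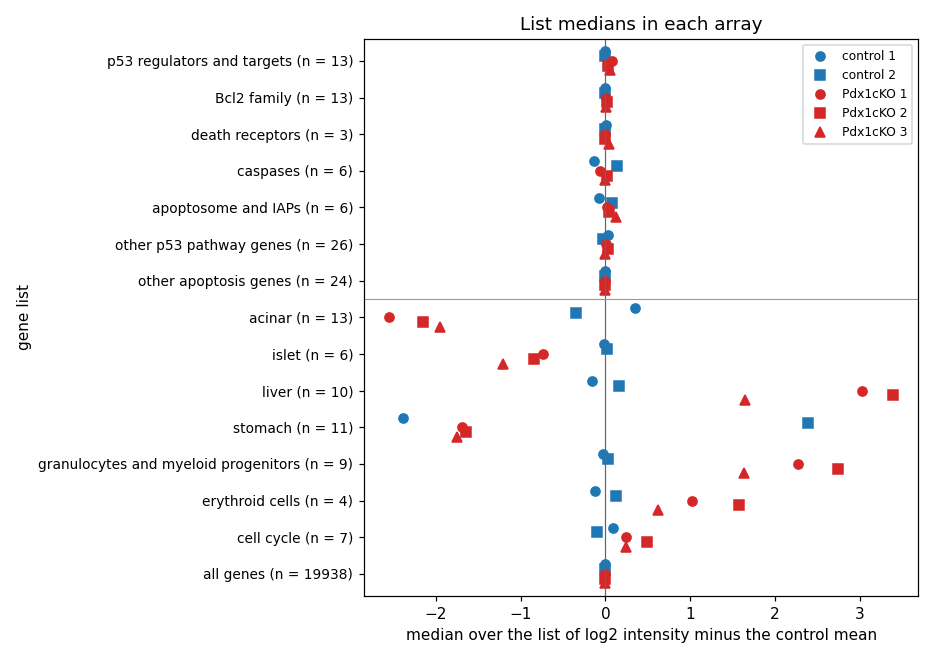
For each array and gene list, the median deviation of its genes from the control mean in log2 units (blue for control, red for Pdx1cKO, with a marker shape per mouse). The 5 member classes and both lists of further pathway genes lie close to 0 in every array, while the acinar, islet, liver, granulocyte and erythroid lists are displaced in all 3 Pdx1cKO arrays and the stomach list is high in control 2.

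Per array, the class medians of the members lay between -0.13 and 0.13 of the control mean on the log2 scale, with both extremes on the control arrays, for the caspases. Deviations from the mean of 2 controls mirror each other, so both extremes stand for 1 difference between the controls. In the same Pdx1cKO arrays the median deviation of the acinar markers was -2.55, -2.15 and -1.95, that of 6 islet hormones -0.73, -0.84 and -1.21, and that of 10 liver markers 3.02, 3.39 and 1.65. The cell cycle list, with 7 genes measured, was at 0.24, 0.49 and 0.24.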

How the data were processed

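Pancreatic RNA of 2 control and 3 Pdx1cKO mice was hybridised to 1-colour Affymetrix arrays, 1 per mouse. The deposited table holds linear intensities of 28853 probe sets, exported by the authors from GeneSpring GX. How these were background-corrected, normalized and summarised, and the genome build behind the annotation, is not given in the sources used here. Log2 was taken with no pseudocount and no rescaling. Symbols came from the platform annotation (21789 probe sets with 1 symbol, 1621 with several, 5443 unnamed here). Of those with 1 symbol, the only ones used, 21698 matched RefSeq. Several probe sets of a gene were averaged, giving 19938 genes. An exact tie between arrays was present in 67.7% of probe sets. The groups were compared in R 4.3.3 with limma 3.58.1 (lmFit, eBayes, Benjamini-Hochberg adjustment over all genes), and the step was tested on simulated data. The t-test that the methods name for the whole study was an alternative. Python 3.11.15 with pandas 2.3.3 handled the tables.

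Members, classes and marker lists were chosen with earlier results of these data known. Values in every array are given for Mdm2, for the 6 members with the smallest limma p in each of the p53 and Bcl2 classes and the 3 in each other class, for members without overlap and a log2 fold change of at least 0.5 in size, for the 4 genes with the smallest p in each further pathway list, and for Pdx1. Values per array of any other member were added with its values in view. No label names a batch. The alternatives were median scaling, quantile normalization, a filter on the lowest quartile, the brightest probe set per gene, trend and robust settings, array weights, the t-test, the replicate number as a block, a covariate for sex read from the arrays, and leaving out each sample.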

Additional observations from a re-analysis of the deposited data

How the results depend on the processing

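Perp was at -1.43 to -0.92 on the log2 scale under the 14 alternatives. Its direction could not change when a sample was left out, because all 3 Pdx1cKO values lay below both controls. The filter on the lowest quartile, the brightest probe set, the trend and robust settings and the t-test leave its log2 fold change as it was. Where both controls were kept, its limma adjusted p ran from 0.207 (median scaling) to 0.925 (array weights). The number of calls depended on which control was kept. With 1 sample left out, 0 to 2072 genes were called lower and 0 to 1604 higher, and of the members 0 to 5 were lower and 0 to 4 higher. With the methods' t-test, adjusted calls over all genes were 7 lower and 3 higher. Calls at an unadjusted p were counted over all genes in the main fit only. Member counts at this level under the alternatives therefore cannot be judged against a share over all genes. At an unadjusted p, 0 members were lower and 0 higher with array weights, 2 were higher with the covariate for sex, and 1 to 9 were lower and 0 to 6 higher over the left-out samples.

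Class medians moved by more than their spread between arrays as follows. For p53 regulators and targets the median was 0.0496 with median scaling and -8.81e-05 to 0.13 over the left-out samples. For the Bcl2 family it was 0.0071 with median scaling, -0.0017 with quantile normalization and 0.0097 with sex as a covariate, and it ran from 1.96e-04 to 0.0455 over the left-out samples. For the death receptors it was -0.0294 with median scaling, 0.0466 with sex as a covariate and 0.0233 without Pdx1cKO mouse 1. For the caspases it was -0.153 without control 1, and for the apoptosome and IAPs 0.14 without control 2. The other ends over the left-out samples moved by less than the spread. These were -0.0097 for the death receptors, 0.0741 for the caspases and -0.0098 for the apoptosome and IAPs.

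With the replicate number as a block, 2 members were higher at an unadjusted p, and the class medians were 0.0398 for p53 regulators and targets and 0.0197 for the Bcl2 family. Same-numbered mice deviated from their group means with correlations of 0.0325 and -0.0030 across genes. The deviations of 2 controls mirror each other, so this check cannot decide whether the numbers pair the mice. The block changed no adjusted call.

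Of 433 values of 31 named genes under the alternatives, 416 stayed on their side of the threshold with no change of sign (2 of them, of Bcl2l2 and Fas, at exactly 0), 7 passed it when a control was left out, and 10 changed sign, none of them called. Mdm2 was at 0.0113 and Tnfrsf10b at 0.0466 with sex as a covariate, Tnfrsf1a at -0.0126 and Birc3 at -0.0079 with quantile normalization, and Birc3 at -0.0043 with median scaling. Over the left-out samples Mdm2 ran from -0.0132 to 0.0188, Bmf from -0.0485 to 0.73, Tnfrsf1a from -0.067 to 0.12, Tnfrsf10b from -0.0379 to 0.0233 and Diablo from -0.0401 to 0.17. The causes were not tested. With 5 arrays and no detection calls, which dim members lie above background is unknown.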
